A study of Mus musculus with 12 samples.

Results

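The genes described here are 9 factors that remove methyl groups from histone H3 at K36 or bind a methylated lysine of a histone: the demethylase genes Kdm2a, Kdm2b, Kdm4a, Kdm4b and Kdm4c, and the reader genes Zmynd11, Psip1, Brpf1 and Msh6. They were taken by symbol from a table of 34193 genes, in which each of the 9 had a row of its own, and all 9 passed the filter (a mean over the 12 libraries of 10 normalised reads or more), which left 14397 genes for testing. RNA was sequenced from the cerebral cortex of mice aged 8 weeks. The 6 conditional knockout (cKO) libraries came from mice with the genotype Nsd1 flx/flx and Nestin-cre +/-, and the 6 control libraries from mice with Nsd1 flx/flx and Nestin-cre -/-, so that both groups carried the loxP-flanked alleles and the cKO group alone carried the Cre transgene. The nestin regulatory sequence drives Cre in cells of the neural lineage, and other cells of the cortex, such as endothelium and microglia, come from other lineages. Which cells lost Nsd1 was not measured. No group with Cre and unflanked Nsd1 was part of the comparison, and an effect of the transgene itself cannot be told apart from that of the deletion. The labels number biological replicates but name no animals, and p-values here reflect how far these 12 libraries spread.

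Methyl groups on H3K36 are placed by enzymes such as NSD1, which makes the dimethyl form, and SETD2, which makes the trimethyl form along transcribed genes. KDM2A and KDM2B are JmjC-domain enzymes known to act on the dimethyl form and also carry a CXXC zinc finger that binds unmethylated CG sites. The KDM4 enzymes act on trimethyl marks of both H3K9 and H3K36. Many readers of methylated H3K36 recognise it with a PWWP domain, which is found in ZMYND11, PSIP1 (LEDGF), BRPF1 and MSH6, and also in DNMT3A, the enzyme that writes most non-CG methylation in neurons. The comparison asks whether the genes of erasers and readers differ in cortex whose main H3K36 dimethyl writer was targeted. The values are sums over each gene, so splice forms cannot be separated, among them forms of Kdm2a without the JmjC part and the short form of Psip1.

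Nsd1, the targeted gene, averaged 4235 ± 850 normalised reads among controls against 3251 ± 299 among cKO libraries (SD, n = 6 per group). The log2 difference, -0.36 (SE 0.12), missed the threshold over all genes (limma adjusted p = 0.383). The values count reads over the whole gene and do not measure recombination. Library totals ran from 10.5 to 27.0 M reads. The library numbers are those of the table's columns, where 1 to 3 of each genotype held reads of Y-linked genes and 4 to 6 did not, against the sex label of the same number in 8 of 12 columns. The model therefore had a term for genotype and another for this split. Control libraries 4 and 5 stood apart by their share of mitochondrial ribosomal RNA (14.2% and 11.5%, against 1.46% to 6.00% in the others). The cKO library 4 stood apart in another way: it was separated from the other 5 cKO libraries as the highest for 7.05% of tested genes and as the lowest for 4.97%, by a gap past Dixon's 95% critical value for 6 samples, while no other cKO library reached 1% on either side. The marker lists of excitatory neurons, interneurons, astrocytes, oligodendrocytes, oligodendrocyte precursors, microglia, endothelium and striatum were above the filter in full. Of the hippocampus list 5 of 6 were tested, without Dsp, and of the cycling cell list 2 of 5, without Ccnb1, Cdk1 and Birc5. Among the tested markers 2 were called, both higher in the cKO: the astrocyte water channel gene Aqp4 (log2 fold change 0.53, limma adjusted p = 0.00973) and Lct of the hippocampus list (1.24, adjusted p = 0.00149). Of the 5 tested hippocampus markers 3 lay above 0, with a median log2 fold change of 0.052. For the astrocyte list it was 5 of 6, with a median of 0.15. The oligodendrocyte markers summed to 67019 to 118775 normalised reads among controls (median 93043) and 68066 to 94747 among cKO libraries (median 71379), and 1 of 6 cKO libraries lay above the control median. The sum is weighted to the most abundant markers. Taken singly, 2 of the 6 oligodendrocyte markers had a log2 fold change above 0, with a median of -0.043, and 0 were called. The part of these markers in the values of the 9 genes was not tested. Choroid plexus markers summed to at most 127 normalised reads in any library, with Folr1 and Otx2 below the filter, and no marker of any list was at 0 in all 12 libraries.

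None of the 9 genes passed the test for a difference between cKO and control. In limma on log2(value + 1), with Benjamini-Hochberg adjustment over all 14397 genes, 0 of 9 were called and adjusted p ran from 0.586 to 0.989. Over all tested genes 0.834% were called (0.764% higher and 0.0695% lower), so that 0 of 9 is near the background share. At an unadjusted p under 0.05 there were also 0 of 9, beside 9.73% of tested genes. edgeR on the recovered reads also called 0 of 9, beside 0.827% of all genes, and DESeq2 0 of 9, beside 1.17%. The cKO and control libraries overlapped for all 9, where 1.01% of tested genes had groups that did not overlap. The fold changes lay between -0.061 for Kdm4c and 0.16 for Msh6 on the log2 scale, with 7 of 9 above 0 and a median of 0.081, beside 49.9% of all tested genes above 0 and a median of -0.00069. The count above 0 was 8 of 9 with quantile normalisation and 5 of 9 without control libraries 4 and 5 and cKO library 4. In whole cortex, fewer cells of a type and less RNA per cell cannot be told apart.

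The size of a change that these libraries leave room for is given by the 95% intervals of the fits. Their lowest bound over the 9 genes was a ratio of 0.835, for Kdm4c, and their highest a ratio of 1.33, for Msh6. The narrowest intervals were those of Zmynd11, from 0.926 to 1.16, and Kdm4a, from 0.943 to 1.19. The fewest reads behind any value were 161, for Kdm2b in control library 4. That number gives a counting error of 7.88%, against a coefficient of variation of 9.82% among controls and 6.90% among cKO libraries. For Kdm4a the counting error in its shallowest library was 4.75%, against 11.5% and 4.71%. For both genes the library with the fewest reads was control library 4, so its counting error does not measure that of the cKO libraries. Zmynd11 had at least 1574 reads in each library, a counting error of at most 2.52%. The within-group SD of log2 values had a median of 0.18 over the 9 genes and 0.18 over the 9384 tested genes whose mean reached 200 normalised reads.

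The KDM2 demethylase genes differed in level, and neither passed the test. Kdm2a ran from 1470 to 2073 normalised reads in the controls, with a median of 1732, and from 1686 to 2294 in the cKO, with a median of 1882. The lowest controls were libraries 3 and 6 and the highest cKO was library 4, and 5 of 6 cKO libraries lay inside the control range. The log2 fold change of cKO against control was 0.14 (SE 0.10, 95% interval -0.074 to 0.36, limma adjusted p = 0.604). It was 0.078 without cKO library 4, 0.092 without control library 3 and 0.094 without control library 6, but 0.20 without control library 2. With a linear trend of each library with exon length removed it was 0.045. Kdm2b, which also recruits a variant Polycomb repressive complex to CG islands, ran from 283 to 362 normalised reads in the controls, with a median of 318, and from 280 to 337 in the cKO, with a median of 325. The genotype difference of -0.0043 on the log2 scale (SE 0.086, 95% interval -0.19 to 0.18, limma adjusted p = 0.989) was the nearest to 0 of the 9, and 5 of 6 cKO libraries lay inside the control range.

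**Figure D1:**
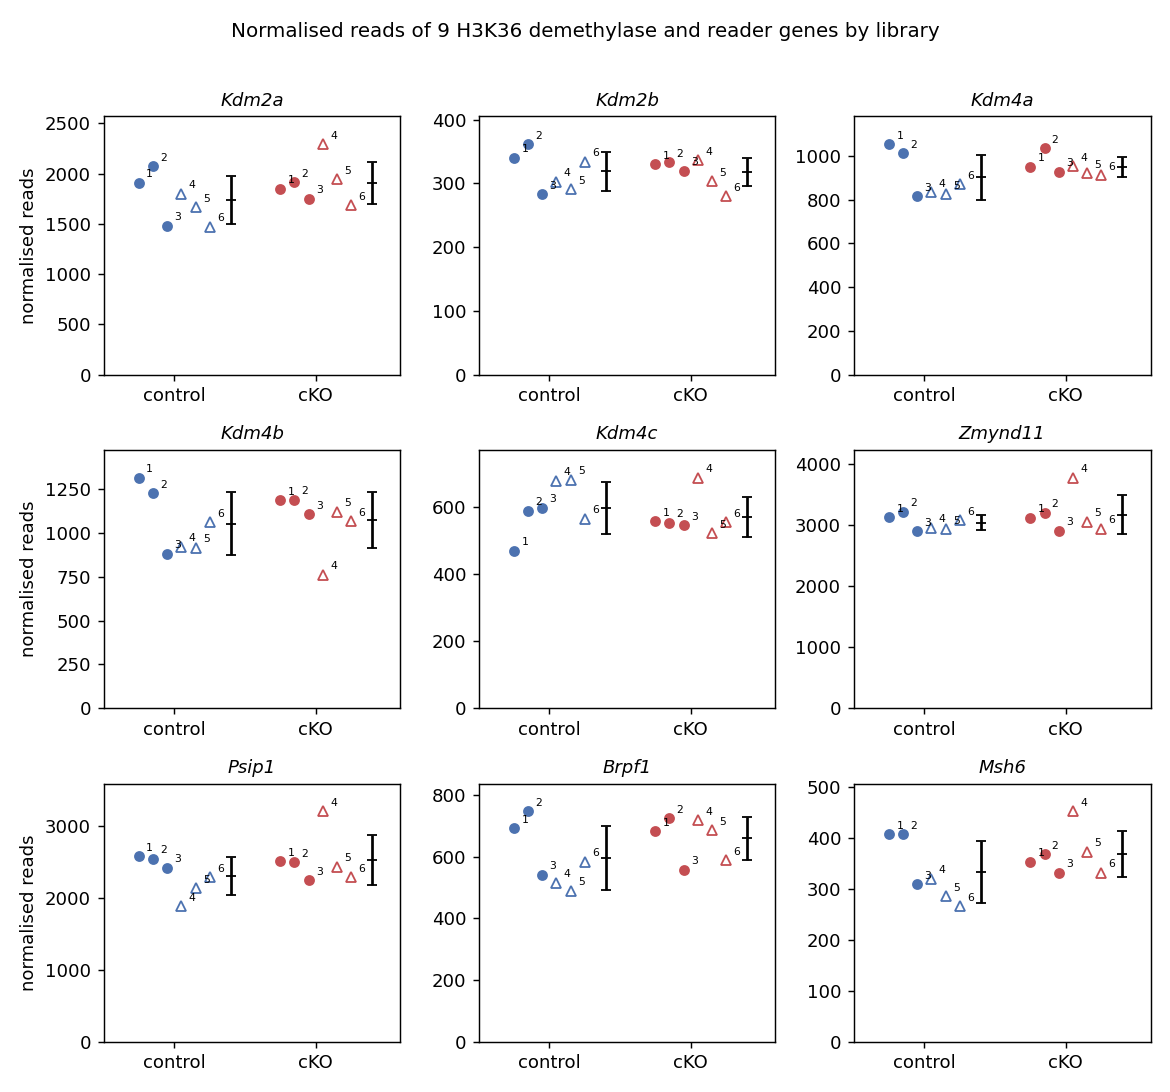
Normalised reads (vertical axes, from 0) of the 9 genes in control (blue) and cKO (red) libraries. Filled circles are libraries with Y-linked reads and open triangles those without, small digits give the library number, and black bars give the mean and SD of 6 libraries; the groups overlap in every panel, and cKO library 4 is the highest cKO point for Kdm4c (688), Zmynd11 (3776), Psip1 (3207) and Msh6 (452) and the lowest for Kdm4b (763).

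None of the 3 KDM4 genes passed the test, and their small fold changes differed in sign. Kdm4a ran from 816 to 1055 normalised reads in the controls (median 852) and from 911 to 1035 in the cKO (median 939), and all 6 cKO libraries lay above the control median and inside the control range. On the log2 scale the difference was 0.081 (SE 0.078, 95% interval -0.085 to 0.25, limma adjusted p = 0.692). It was 0.037 without control library 3 and 0.12 without control library 1. Kdm4b was the most variable of the 9, with a within-group SD of 0.24 on the log2 scale. It ran from 881 to 1316 normalised reads in the controls (median 991) and from 763 to 1191 in the cKO (median 1115). The cKO minimum was library 4 alone, and the other 5 cKO libraries held at least 1067. A log2 fold change of 0.028 resulted (SE 0.11, limma adjusted p = 0.937), and of 0.11 without that library. Kdm4c ran from 470 to 682 normalised reads in the controls (median 593) and from 522 to 688 in the cKO (median 554). Its high values were control libraries 4 and 5 (678 and 682) and cKO library 4 (688), and 5 of 6 cKO libraries lay below the control median. The genotype difference was -0.061 in log2 units (SE 0.094, limma adjusted p = 0.805). It was 0.021 without control libraries 4 and 5 and -0.12 without control library 1.

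Among the readers, Zmynd11, a reader of trimethylated H3K36 on the variant histone H3.3 that restrains transcript elongation, had the smallest spread, a within-group SD of 0.11 on the log2 scale. It ran from 2900 to 3217 normalised reads in the controls (median 3020) and from 2909 to 3776 in the cKO (median 3084). The 5 other cKO libraries lay inside the control range and only library 4 above it. Its log2 difference, 0.055 (SE 0.078, limma adjusted p = 0.789), was -0.0010 without that library. Psip1, whose product tethers partner proteins to transcribed chromatin, ran from 1885 to 2584 normalised reads in the controls (median 2354) and from 2249 to 3207 in the cKO (median 2467). Its low values were control libraries 4 and 5 (1885 and 2132) and its high value was cKO library 4. The fold change, 0.13 on the log2 scale (SE 0.10, 95% interval -0.082 to 0.34, limma adjusted p = 0.619), became 0.044 without cKO library 4, 0.076 without control library 4, 0.026 without control libraries 4 and 5 and -0.026 without all 3. Without cKO library 3 it was 0.17.

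Brpf1, the scaffold of the MOZ and MORF acetyltransferase complexes, ran from 491 to 748 normalised reads in the controls (median 564) and from 558 to 726 in the cKO (median 685), and all 6 cKO libraries lay inside the control range. The genotype difference was 0.16 in log2 units (SE 0.11, 95% interval -0.071 to 0.39, limma adjusted p = 0.586), and 0.054 without control libraries 4 and 5. Without single libraries it ran from 0.11 to 0.23. Msh6, whose product takes part in the recognition of base mismatches, ran from 265 to 407 normalised reads in the controls (median 314) and from 331 to 452 in the cKO (median 360). Every cKO library lay above the control median, while control libraries 1 and 2, both at 407, lay above 5 of 6 cKO libraries. The log2 fold change was 0.16 (SE 0.12, 95% interval -0.089 to 0.41, limma adjusted p = 0.611), with 0.10 left without control library 6 and 0.078 without cKO library 4. The authors' deposited table gives the 9 genes log2 fold changes from -0.062 to 0.15 and adjusted p from 0.782 to 0.993.

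The fold changes of the readers Msh6, Psip1 and Brpf1 were larger in the libraries without Y-linked reads than in those with them, but no test of this difference passed the threshold. Without Y-linked reads, Msh6 averaged 290 ± 27.3 normalised reads among controls against 385 ± 61.3 among cKO libraries (SD, n = 3 per group), and with them 374 ± 56.7 against 351 ± 18.1. The log2 fold changes were 0.40 and -0.083, and the test of their difference, -0.48 (SE 0.20), gave an unadjusted limma p of 0.0319 and an adjusted p of 0.562. Within the set without Y-linked reads Msh6 had an unadjusted limma p of 0.0143 and an adjusted p of 0.140. At an unadjusted p under 0.05 this set had 3 of 9 genes (Psip1, Brpf1 and Msh6), beside 22.5% of tested genes, and the set with Y-linked reads had 0 of 9, beside 2.56%, so both counts are near the background. For Psip1 the fold changes were 0.32 without and -0.059 with Y-linked reads (limma adjusted p of the difference 0.562), and for Brpf1 0.32 and -0.0085 (adjusted p = 0.592). The other 6 genes had differences between -0.23 and 0.14. Over all genes 0% were called for this difference and 8.77% had an unadjusted p under 0.05, against 1 of 9 here. The set without Y-linked reads holds control libraries 4 and 5 and cKO library 4, and without all 3 the differences were -0.49 for Msh6, -0.11 for Psip1 and -0.13 for Brpf1, with 1 control library left in that set and its spread taken from the other groups.

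**Figure D2:**
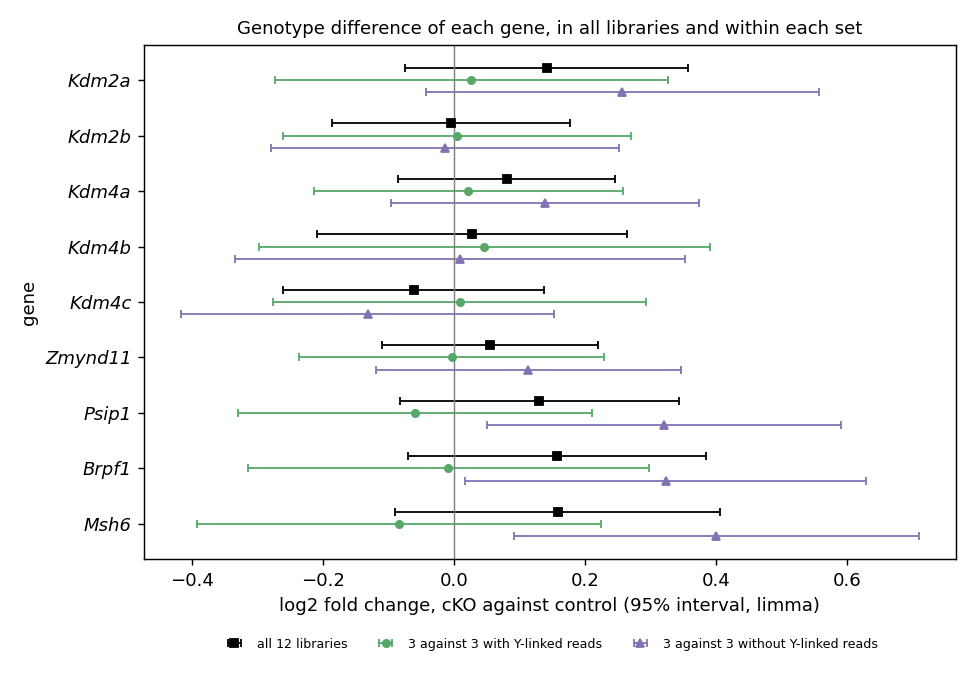
Log2 fold change of cKO against control (horizontal axis) for each gene, with the 95% interval of limma, in all 12 libraries (black squares), in the 3 against 3 libraries with Y-linked reads (green circles) and in those without (purple triangles). All 9 black intervals include 0; the purple intervals of Psip1, Brpf1 and Msh6 lie above 0, at 0.32, 0.32 and 0.40, before adjustment over genes, as 22.5% of tested genes had an unadjusted p under 0.05 in that set.

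The split by Y-linked reads itself gave no call among the 9 genes (0 of 9, against 0.0764% of tested genes). Kdm4b had the largest difference, 0.24 higher with Y-linked reads on the log2 scale (SE 0.11, limma unadjusted p = 0.0466, adjusted p = 0.421). The difference of Kdm4b was 0.16 without cKO library 4 and 0.32 without control library 3. At an unadjusted p under 0.05 in the fit of all 12 libraries, Kdm4b was 1 of 9, beside 11.7% of tested genes.

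Most of the 9 genes rose and fell together over the 12 libraries, and this was not tested within a genotype. In control library 2 all 9 lay above their mean over 12 libraries on the log2 scale, and 8 of 9 did so in control library 1 and in cKO libraries 1, 2 and 4. At most 2 of 9 did so in control libraries 3, 4, 5 and 6, and 1 of 9 in cKO library 6. Between these lay cKO library 3, with 3 of 9, and cKO library 5, with 5 of 9. The mean deviation of the 9 ran from -0.14 in control library 3 to 0.17 in cKO library 4. Over the 36 pairs of genes, Pearson's r across the 12 libraries was above 0 for 28, and 17 pairs passed an adjusted p of 0.05 (permutation test with 100000 draws, two-sided, adjusted over the 36 pairs). The draws shuffled all 12 libraries, across genotype and the Y-linked split. Their p-values do not tell a link between the genes of a pair from a trend that a whole library shares. The highest was that of Kdm2a with Msh6 (r = 0.921, Spearman's rho = 0.930, permutation p = 4.0e-05 and 7.0e-05, adjusted p = 0.00144 and 0.00252), and r was 0.831 without the 2 libraries farthest from the median of Kdm2a. Kdm4a with Brpf1 followed (r = 0.873, rho = 0.874, permutation p = 0.00032 and 0.00057, adjusted p = 0.00576 and 0.00606, and r = 0.897 without 2 libraries). Kdm4c went against Kdm4b, while its pair with Kdm4a did not pass (r = -0.575, rho = -0.476, permutation adjusted p = 0.0933 and 0.170). With Kdm4b it gave r = -0.835 and rho = -0.755 (permutation p = 0.00075 and 0.00598, adjusted p = 0.00734 and 0.0144), and r = -0.847 without 2 libraries. Pairs of other tested genes were not counted in this way, so the 28 and 17 of 36 pairs do not set the 9 genes apart.

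Transcript length moved with this pattern. For each library a slope of log2 deviation on log2 exon length was fitted over the tested genes, and it ran from -0.13 per doubling of length in control library 3 to 0.11 in control library 2. The 9 genes have 3934 to 9713 bases of merged exons, all above the median of 3424 bases for tested genes. Genes longer than most tend to follow the slope by the way it was fitted. The share of all tested genes that follow it was not computed, so the p-values below do not set the 9 genes apart. The draws again shuffled all 12 libraries, across genotype and the Y-linked split. Across the 12 libraries Brpf1 followed the slope most closely (r = 0.913, rho = 0.944, permutation p = 0.00011 and 2.0e-05, adjusted over the 9 genes 0.000495 and 0.00018, and r = 0.911 without the 2 libraries farthest from the median slope). Kdm2a, the longest, gave r = 0.886 and rho = 0.916 (permutation p = 9.0e-05 and 7.0e-05, adjusted p = 0.000495 and 0.000315, and r = 0.830 without 2 libraries). Kdm4c did not follow it (r = -0.238, rho = -0.294, permutation p = 0.455 and 0.354, adjusted p = 0.455 and 0.354, and r = -0.281 without 2 libraries). Kdm4b passed by rho but not by r (r = 0.380, rho = 0.601, permutation adjusted p = 0.250 and 0.0475, and r = 0.147 without 2 libraries). With the slope removed from each library, r was 0.764 for Kdm2a with Msh6, 0.820 for Kdm4a with Brpf1 and -0.888 for Kdm4b with Kdm4c, and 27 of 36 pairs were above 0. Other pairs came down more: r went from 0.666 to 0.167 for Kdm2a with Kdm4a, from 0.729 to 0.337 for Kdm2a with Brpf1, from 0.557 to 0.065 for Kdm2a with Kdm2b, from 0.738 to 0.515 for Kdm2b with Kdm4a and from 0.060 to -0.44 for Kdm2a with Kdm4b. In 23 of 36 pairs r was nearer to 0 than before. The genes of cytosolic ribosomal proteins, 73 in number, moved the other way in several libraries. Their mean log2 deviation was 0.76 and 0.81 in control libraries 4 and 5, where the 9 genes averaged -0.11 and -0.14. It was -0.44 in control library 2 and -0.39 in cKO library 2, where the 9 genes averaged 0.16 and 0.094. The part of RNA composition in the members' pattern was not tested.

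**Figure D3:**
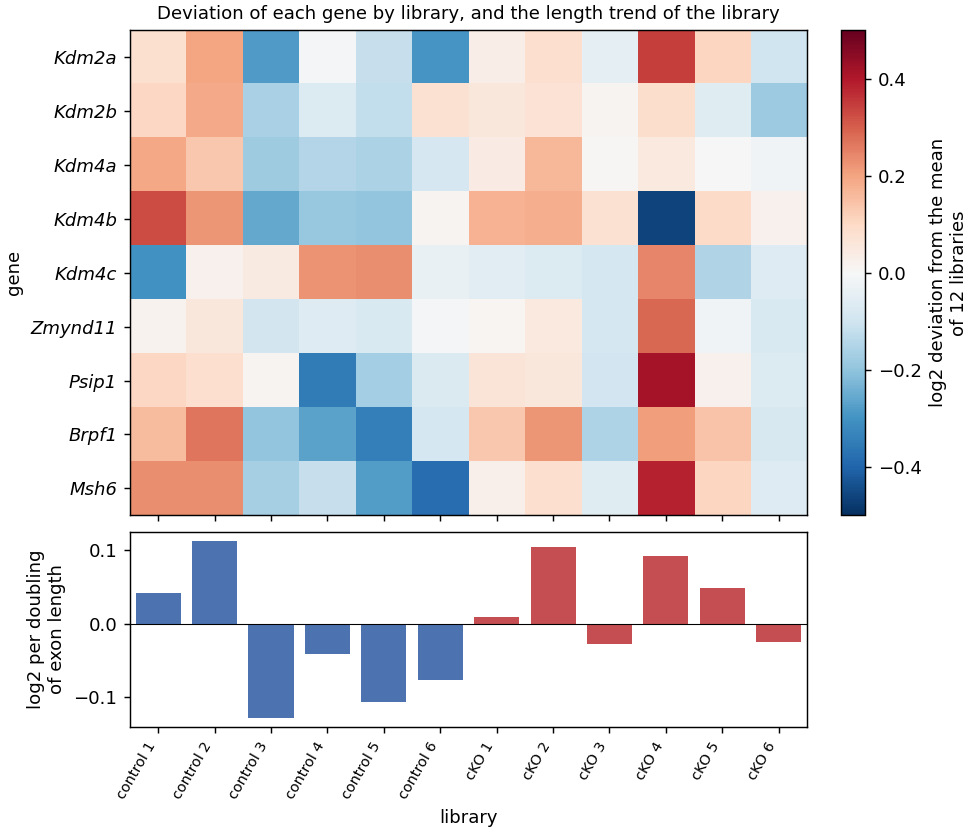
Upper panel: log2 deviation of each gene (rows) from its mean over the 12 libraries (columns), red above and blue below. Lower panel: slope of each library's log2 deviations on log2 exon length over tested genes (vertical axis, log2 per doubling; blue control, red cKO); control libraries 1 and 2 and cKO library 2 are mostly red with slopes above 0, and control library 3 is mostly blue with the lowest slope, -0.13, while Kdm4c has the opposite colour to Kdm4b in most columns.

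For the genes with the most alike profiles over the 12 libraries, 11388 tested genes whose mean reached 50 normalised reads and that have a symbol that is no predicted model were compared, and the gene with the highest r was taken, so no p is given. For Kdm2a this was Pikfyve (r = 0.983), for Kdm2b Setdb1 (r = 0.887), for Kdm4a Ubap2l (r = 0.989), for Kdm4b Ptprs (r = 0.969) and for Kdm4c Strn3 (r = 0.963). For the readers it was Suz12 with Zmynd11 (r = 0.968), Hp1bp3 with Psip1 (r = 0.979), Hspa12a with Brpf1 (r = 0.977) and Csnk1g3 with Msh6 (r = 0.973). At a set bound of r above 0.9, there were 285 genes for Brpf1, 221 for Kdm2a and 185 for Psip1, but 18 for Kdm4c and 0 for Kdm2b.

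The pair Kdm4a and Brpf1, the closest with a start site in the RefSeq promoter table (build GRCm38.p6), is shown by the 250 bases before each start, 5′ to 3′ on the gene's strand, with each CG in capitals because CG sites are where KDM2 enzymes bind DNA. The Kdm4a window is chr4:118180044-118180293 on the minus strand, upstream of the gene, and the Brpf1 window chr6:113306887-113307136 on the plus strand. The table was matched for 6 of the 9 genes.
Kdm4a: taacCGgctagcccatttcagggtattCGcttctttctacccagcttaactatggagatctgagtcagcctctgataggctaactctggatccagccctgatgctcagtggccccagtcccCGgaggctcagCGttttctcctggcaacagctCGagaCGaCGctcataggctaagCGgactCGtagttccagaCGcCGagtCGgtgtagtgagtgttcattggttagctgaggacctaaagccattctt
Brpf1: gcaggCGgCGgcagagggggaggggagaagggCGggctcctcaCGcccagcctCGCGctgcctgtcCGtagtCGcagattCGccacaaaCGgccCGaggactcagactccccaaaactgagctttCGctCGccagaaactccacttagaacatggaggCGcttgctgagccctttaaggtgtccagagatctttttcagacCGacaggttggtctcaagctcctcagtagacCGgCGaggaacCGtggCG
The motif CG reads the same on both strands. It occurred 12 times before Kdm4a and 19 times before Brpf1, and 33.5% and 19.7% of all 32851 windows in the table had at least as many, with a median of 6. Before the single Msh6 start there were 27. The 4 windows of Kdm2b held 12 to 38, the 4 of Zmynd11 6 to 38 and the 2 of Kdm4c 0 and 19, and which start is used in cortex was not measured. These counts describe the letters of the windows, and no binding or methylation was measured here.

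Per kilobase of merged exon, the readers Zmynd11 and Psip1 had the highest levels of the 9 and Kdm2b the lowest. Zmynd11 stood at 666 ± 51.6 normalised reads per kb and Psip1 at 615 ± 80.8 (SD, n = 12), above 88.5% and 87.5% of tested genes with a length. These 2 were neighbours whose ranges overlapped, with Zmynd11 above Psip1 in 11 of 12 libraries, and both lay above Kdm4b (232 ± 35.6) in every library. Kdm2a (187 ± 24.2) and Kdm4a (183 ± 15.9) could not be ordered, Kdm2a being higher in 6 of 12 libraries. The same held for Kdm4c (134 ± 15.7) and Brpf1 (128 ± 18.5), with Kdm4c higher in 7 of 12. Msh6 (82.3 ± 12.8) lay below Brpf1 in every library although the ranges overlapped, and Kdm2b (54.3 ± 4.40) lay below Msh6 with no overlap. The median of tested genes was 119 normalised reads per kb. Between the KDM2 enzymes the level of Kdm2a was thus the higher, and among the KDM4 enzymes that of Kdm4b. No source used here says whether reads in introns were counted, and intron reads would raise the values of genes with long introns on this scale.

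**Figure D4:**
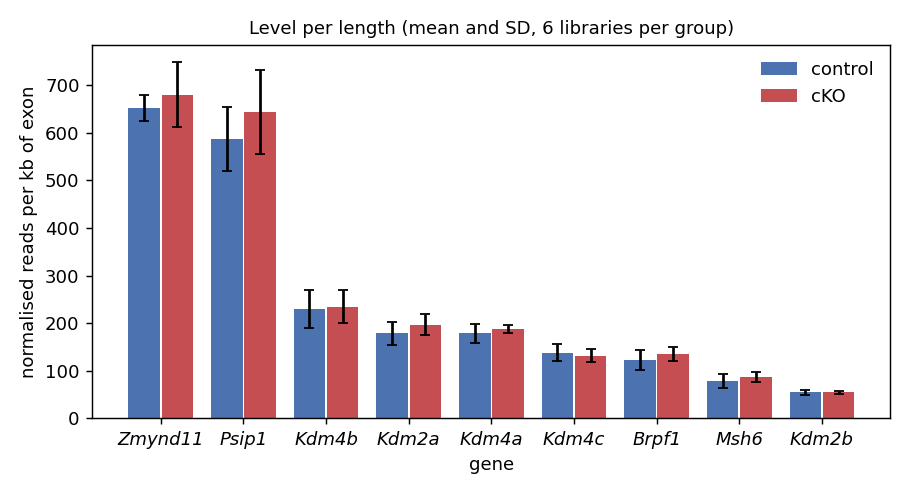
Normalised reads per kb of merged exon (vertical axis, from 0) for each gene, ordered by the mean of all 12 libraries; bars give the mean and error bars the SD of 6 control (blue) and 6 cKO (red) libraries. Zmynd11 and Psip1 stand at 652 and 587 in the controls and above that in the cKO, and Kdm2b is lowest at 54.4 in the controls and 54.1 in the cKO.

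Other genes of the same biology were read from the same fit, in 8 lists of 60 genes. Of these, 59 were tested, Dnmt3b being below the filter, and 0 were called in either direction in limma, beside 110 higher and 10 lower genes of 14397. At an unadjusted p under 0.05 there were 3 of 59, beside 9.73% of tested genes. edgeR and DESeq2 also called 0, beside 0.827% and 1.17% of tested genes. Their median log2 fold change was 0.01, with 31 of 59 above 0. Among 6 other genes of JmjC type, the highest was Jhdm1d (Kdm7a), at 0.26 (limma adjusted p = 0.523), and the lowest Kdm4d, at -0.31 from a mean of 25.9 normalised reads (adjusted p = 0.644). Among 14 other tested PWWP genes, 9 lay above 0. The highest was Zcwpw1, at 0.26, and the lowest Whsc1 (Nsd2), at -0.21 (limma adjusted p = 0.586 and 0.525).

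The list of tudor and chromo readers and related genes, some of which bind methylated H3K36 with other folds, ran from -0.44 for Phf19 to 0.085 for Msl3. In it 2 of 6 lay above 0. The H3K36 methyltransferases ran from -0.36 for Nsd1 to 0.11 for Whsc1l1 (Nsd3), with 3 of 7 above 0. After removal of the length trend Nsd1 was the only gene of the 8 lists that was called. For the partners of BRPF1, the values ran from -0.24 for Myst4 (Kat6b) to 0.11 for Myst3 (Kat6a), the acetyltransferases of its complexes. Among mismatch repair genes Pms1 was the lowest, at -0.43 (limma adjusted p = 0.527). In the variant Polycomb complex of KDM2B, Bcor was the highest at 0.26 and Pcgf1, its defining ring-finger subunit, the lowest at -0.38 (SE 0.11, limma unadjusted p = 0.00253, adjusted p = 0.185), from a mean of 117 normalised reads among controls and 89.6 among cKO libraries. The partners of PSIP1 ran from -0.59 for Cdca7l, at a mean of 10.7 normalised reads, to 0.18 for Mll1 (Kmt2a). Phf19, Kdm4d and Cdca7l lay near the filter, where log2(value + 1) understates a change.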

How the data were processed

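Reads of ribosome-depleted total RNA from 250 ng per sample were processed by the authors; Trim Galore, Bowtie, STAR and bedtools and the build mm9 appear in the submitters' processing notes, with no versions or roles. The authors deposited DESeq2-normalised counts, per the file headers, which are a signal on a scale of reads comparable between libraries. Every value above 0 was a whole multiple of 1 step per library (100% within 0.01 reads), and whole reads were recovered from it for edgeR and DESeq2. The authors' deposited comparison holds, for each gene, a log2 fold change, its error, a Wald score, a p-value and the adjusted p-value.

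Columns were assigned to genotype only, because Y-linked reads (4 genes, summed value above 100) went against the sex label of the same number in 8 of 12. Genes whose mean reached 10 normalised reads were tested in limma (log2(value + 1), trended variance, two-sided) with terms for genotype and the Y-linked split, and a call needed an adjusted p (Benjamini-Hochberg) under 0.05. Exon lengths came from merged exons of GENCODE M21 basic annotation, for 98.0% of tested genes. Library kits were directional, but nothing states whether counting used the strand, so overlapping genes on opposite strands may share reads, as may similar paralogs. The members, gene lists and settings were chosen with earlier results of these data known. Named from the 8 chromatin lists were called genes and otherwise the highest and lowest log2 fold change of each, and from the marker lists called genes; 1 of these is not reported here. Alternatives were the pseudocount, filter, scaling, array weights, edgeR, DESeq2, the split, a block for the column number, single libraries left out, control libraries 4 and 5 left out, and the length trend removed; leaving out cKO library 4 together with these 2 was added after seeing the data. The limma and edgeR scripts were tested on simulated data. Versions were R 4.3.3, limma 3.58.1, edgeR 4.0.16, DESeq2 1.42.0 and Python 3.11.15.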

Additional observations from a re-analysis of the deposited data

Results flagged for a closer look

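For 6 of the 9 genes, a group of 6 libraries held an outlying value, where the highest or lowest library was separated from the nearest other by a gap past Dixon's 95% critical value, which chance gives for about 1 in 20 groups. All 6 were in the cKO group. Over all tested genes, a cKO library was set apart as the highest for 8.70% and as the lowest for 5.81%. For control libraries these shares were 2.25% and 1.02%. Most of the 9 genes moved together over the libraries, so flags in the same library are not independent. In cKO library 4, Kdm4c (688 normalised reads), Zmynd11 (3776), Psip1 (3207) and Msh6 (452) were set apart as the highest and Kdm4b (763) as the lowest. In cKO library 2, Kdm4a was set apart as the highest (1035 normalised reads). Library 4 was set apart in this way for 1015 tested genes as the highest and 715 as the lowest, against at most 115 and 40 in any other cKO library. Its total of 14.6 M reads was the lowest of the cKO group, and its length slope was 0.09.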

How the results depend on the processing

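Over 26 alternatives to the genotype fit, 0 of 9 genes were called in any of them, and the lowest adjusted p was 0.305, for Brpf1 without control library 2. The count of called genes over the whole table was 58 with a filter of 50 normalised reads, where fewer genes are tested, 169 with DESeq2 and 97 to 123 without single libraries. The length-trend removal called 1 gene of the wider lists, Nsd1. The direction of small fold changes was not stable, and the cause was not tested. The genotype difference of Kdm2b was 0.019 with quantile normalisation and ran from -0.051 to 0.027 without single libraries; that of Kdm4b ran from -0.052 to 0.11 and was -0.012 without control libraries 4 and 5, where Kdm4c was 0.021. Zmynd11 ran from -0.0010 to 0.079, and without control libraries 4 and 5 and cKO library 4 was -0.015, with Psip1 at -0.026. For the Y-linked split, Kdm2a ran from -0.035 to 0.086 without single libraries and was -0.025 with the length trend removed, Zmynd11 ran from -0.040 to 0.040, and Psip1 was -0.030 without control libraries 4 and 5; without all 3 libraries Kdm4c was 0.0062 and Zmynd11 0.022. For the difference of genotype effects between the sets, Kdm2b ran from -0.086 to 0.091 without single libraries and was -0.033 with quantile normalisation, Kdm4b ran from -0.14 to 0.15 and was -0.00090 with edgeR, Kdm4c was -0.036 without control libraries 4 and 5, and Zmynd11 was 0.039 without all 3. Same-numbered libraries of numbers 1 to 3 deviated together (r = 0.197 to 0.480) and those of 4 to 6 did not (-0.098 to 0.045), so the numbers were not taken as pairs; with a replicate block 118 genes and 0 of 9 were called. The calls of Aqp4 and Lct held in every one of these fits that tested them (Lct lies below the filter of 50). Depth limits Kdm2b most, where counting error reaches 7.88%.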
